A study of Macaca mulatta with 48 samples.

Results

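Endothelial cells of the rhesus monkey (Macaca mulatta) testis are described here from droplet-based single-cell RNA sequencing, in which a barcode marks a cell and a unique molecular identifier (UMI) marks a captured RNA molecule. Members were chosen by their UMI counts of named genes. A cell was taken as endothelial when it carried at least 1 UMI of at least 2 of the 5 genes EMCN, VWF, ADGRL4, EGFL7 and CALCRL, no UMI of DCN or AMH, and less than 5% of its UMIs from the sperm chromatin genes PRM1, PRM2 and TNP1. Barcodes entered when they held 300 genes or more, no more than 30000 UMIs, and no more than 3% of UMIs from mitochondrial genes. Of 112150 such barcodes, 1956 (1.74%) met this rule. Of these, 1004 carried 3 or more of the 5 genes and are called the stringent set below, and 952 carried exactly 2.

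The animals were 6 male monkeys, 2 prepubertal (1 year), 2 adult (6 years) and 2 aged (22 years). From each animal a testis was removed outside the breeding season (August) and the remaining one was taken during it (December), which gave 12 libraries in 6 groups of 2 animals. Every breeding library thus followed the removal of the other testis, and season and this order cannot be told apart. The labels name no library, and the group and animal of each were taken from the study's own library sheet. The tissue was dissociated with collagenase. All p-values between ages rest on 2 animals per age. The gene tests between ages use a single estimate of the spread, shared over the animals of all ages.

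Endothelial cells line blood and lymphatic vessels. EMCN (endomucin) and VWF (von Willebrand factor) are a surface mucin and a clotting protein of vascular endothelium, EGFL7 is a secreted endothelial protein, ADGRL4 an adhesion receptor, and CALCRL the receptor for adrenomedullin and related peptides. In the testis, blood vessels run in the interstitium outside the seminiferous tubules. They supply the hormone-producing Leydig cells and release signals to the stem cells at the tubule border. DCN (decorin) marks stromal cells and AMH (anti-Müllerian hormone) marks immature Sertoli cells, so a cell with UMIs of either was set aside.

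Totals ran from 23072680 to 43405583 UMIs in 11 libraries. The adult breeding library of animal 2 stood apart, with 959819 UMIs and 117 filtered barcodes. Of their barcode sequences 46 (39.3%) also occurred in the aged breeding library of animal 1. That adult library gave 0 endothelial cells, which allows a share of up to 2.5641% by 3 counts of the total and up to 3.10% by the 95% exact binomial interval, and it enters no gene comparison. A barcode sequence that also named a filtered cell of another library was found for 55 endothelial cells, and for 0 of them was the other cell endothelial. RNA of spermatids, the haploid germ cells, was present in endothelial cells of adult and aged testes. The 16 genes of the spermatid list made up 0.0024 to 0.0253% of the UMIs of endothelial cells in the prepubertal libraries, 0.109 to 2.70% in the adult and 1.50 to 3.19% in the aged libraries. In the other cells of the same libraries they made up 0.0015 to 0.110%, 0.743 to 10.9% and 6.08 to 13.3%. The list holds PRM1, PRM2 and TNP1, which the rule caps in endothelial cells alone, so a lower share there is partly set by the rule.

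The rule was checked against genes it did not use, a list of 19 pan-endothelial genes that includes PECAM1 and CDH5, the adhesion proteins of endothelial junctions. By this check the endothelial label held for most of the stringent set and not for most cells with exactly 2 of the 5 genes. It did not ask whether the cells also carried RNA of other cell types. Only 91 of the 1956 cells carried fewer than 2 genes of every list of another cell type. Part of the stringent set also lay in sub-clusters led by genes of other cells, among them 210 of 710 aged stringent cells in cluster 1, described below. At least 2 pan-endothelial genes were detected in 898 of 1004 stringent cells (89.4%) and in 340 of 952 cells with exactly 2 rule genes (35.7%). The share was 78.5% at 3 rule genes, 95.5% at 4 and 99.2% at 5. Just outside the threshold, it was 9.41% of 3368 barcodes with 1 rule gene, and it was 1.71% of 29226 barcodes with none. These shares describe cells on either side of the threshold and were not tested.

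The 2-gene cells departed furthest from the label in adults, where 2 of 16 (12.5%) in the breeding library of animal 1 and 55 of 428 (12.9%) in the non-breeding libraries carried 2 pan-endothelial genes. Of those 428 cells 339 (79.2%) had qualified through the pair VWF and EGFL7 alone. In the aged non-breeding libraries 62.1% of the 2-gene cells carried 2 pan-endothelial genes. The median depth of the 2-gene cells over all libraries was 2968.5 UMIs and that of the stringent cells 1695.5 UMIs. Since the 2-gene cells take most of the adult cells by the rule (444 of 576), the counts of genes in each comparison below are given for both sets, and levels of single genes are those of the stringent set unless stated.

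**Figure D1:**
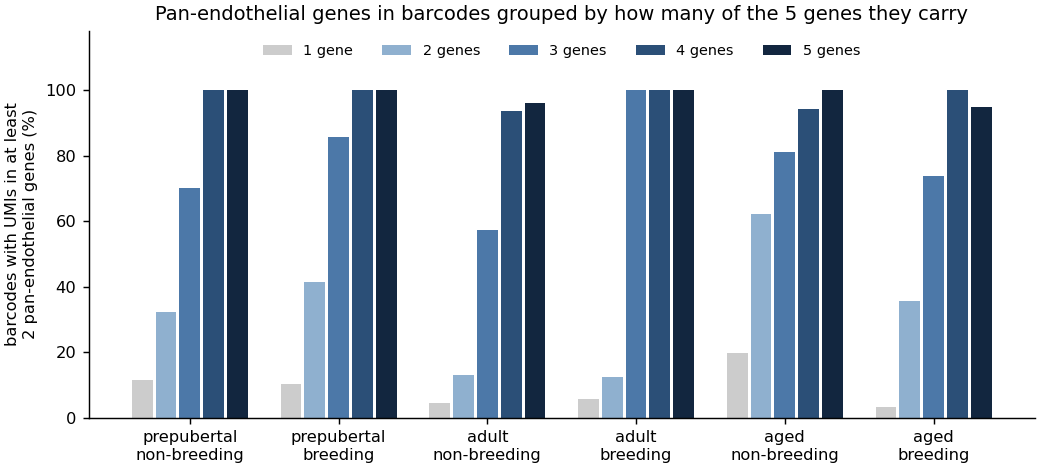
Share of barcodes with UMIs of at least 2 of 19 pan-endothelial genes (y axis, %) in the 6 age and season groups (x axis), with a bar for barcodes that carry 1, 2, 3, 4 or 5 of the rule genes. The bar at 2 genes stands at 12.9% in the adult non-breeding and at 62.1% in the aged non-breeding group.

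The condition of no DCN or AMH UMI removed cells unevenly between ages. Among barcodes with 3 or more rule genes, it took 182 of 219 in the prepubertal non-breeding library of animal 1, 28 of 36 in that of animal 2, and 87 of 143 and 105 of 166 in the prepubertal breeding libraries. In the adult and aged libraries it took 35 of 88, 12 of 57, 2 of 36, 168 of 715, 3 of 79, 0 of 34 and 3 of 56. Of the 625 cells removed, 560 carried at least 2 pan-endothelial genes and 313 carried AMH UMIs with no DCN. The 1629 cells with 3 or more rule genes and no condition on DCN and AMH are therefore given as a further set, named the unconditioned set, wherever they change a call.

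Defining endothelial genes stood far above the other cells. In the 10 libraries with at least 20 stringent cells, PECAM1 ran from 80.6 to 466 CPM (UMIs of the gene per 1000000 UMIs of the summed cells) with a median of 283 CPM, against a median of 2.15 CPM in the other cells. CLDN5, the tight junction protein of vessels, had a median of 350.0 CPM (lowest 186, highest 634) and CD34, a surface protein of capillary endothelium, one of 540.2 CPM (lowest 179.8, highest 942). CDH5 was lower, with a median of 28.8 CPM and a range of 6.20 to 143 CPM. All 4 genes were above the other cells in 10 of 10 libraries.

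PLVAP, which forms the diaphragms of fenestrated capillaries, was the exception among the 19 genes: it was above the other cells in 2 of 10 libraries and its median was 0 CPM. NOS3 (endothelial nitric oxide synthase) and MMRN2 were above them in 9 of 10 libraries and ECSCR in 8, and the other 15 genes in 10 of 10. These levels describe the cells that the rule picked.

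The 1956 cells were split into 13 sub-clusters, which are described by their leading genes and were not tested. Clusters 2, 4 and 11 (571 cells, 29.2%) had the highest pan-endothelial level, with mean log2 ratios to the median over clusters of 1.63, 1.47 and 1.43. Cluster 2 (291 cells) was led by RNASE1, an endothelial ribonuclease, with the immediate early and stress genes FOS, ZFP36 and GADD45B, and 0 of its 25 leading genes were in the pan-endothelial list or those of the vessel types. Cluster 4 (227 cells, 75.8% from the aged non-breeding library of animal 1) was led by TAGLN, a smooth muscle gene, GPIHBP1, which carries lipoprotein lipase to the capillary lumen, and the class II MHC gene MAMU-DRB1.

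Cluster 11 (53 cells, all from the aged non-breeding library of animal 1) carried ACKR1, the chemokine receptor of venules, at 1089.8 CPM and in 67.9% of its cells. It was also led by UBD at 705 CPM and CXCL9 at 639 CPM, both induced by interferon gamma, and by FABP4, a fatty acid carrier of microvessels, at 319 CPM. PLVAP reached 207 CPM here and was detected in 35.9% of the cells.

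Cluster 9 (99 cells, 72.7% from the aged non-breeding library of animal 2) was venous-like: it carried ACKR1 at 445 CPM and SELE (E-selectin) at 544 CPM, with the adhesion gene ICAM1 and the complement genes C6 and C7 (313 CPM) among its leading genes. The immediate early and stress genes ATF3, JUN and ZFP36 were also among them, with JUN at 2572.6 CPM against 1157 CPM in cluster 2. The median depth of cluster 9 was 925 UMIs. Cluster 6 (140 cells, 82.1% from the aged non-breeding library of animal 1) was lymphatic-like, with MMRN1 at 1024.9 CPM in 63.6% of its cells, the hyaluronan receptor LYVE1 at 348 CPM and PROX1, the transcription factor of lymphatic identity, at 232 CPM. Among stringent cells, the lymphatic-like cluster held 45 from that same library and the venous-like cluster held 48 from the aged non-breeding library of animal 2. With 1 library supplying most of each, the type and the library cannot be told apart.

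The remaining clusters were led by genes of other cells. Clusters 3, 5, 7, 8, 12 and 13 (756 cells, 38.7%) were led by germ-cell genes, among them 214 of 267 cells of the adult non-breeding library of animal 1 and 218 of 259 of that of adult animal 2. They held 634 of the 952 2-gene cells (66.6%) and 122 of the 1004 stringent cells (12.2%). Cluster 10 (55 cells) was led by the leukocyte genes GZMB, C1QA and PTPRC. Cluster 1 (335 cells, 91.6% from the aged non-breeding library of animal 1) was led by IGKC, the globin genes HBA and HBE1 and spermatid genes and was left unnamed, although 211 of its cells belonged to the stringent set.

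The ages lay in different sub-clusters. Cluster 2 held 155 of 162 prepubertal stringent cells (95.7%), 82 of 132 adult (62.1%) and 15 of 710 aged ones (2.11%). Cluster 4 held 205 of the aged stringent cells, 7 adult and 0 prepubertal ones. Clusters 6, 9 and 11 held 53, 64 and 43 aged, 8, 4 and 0 adult, and 1, 1 and 0 prepubertal stringent cells. The unnamed cluster 1 held 210 aged (29.6%), 1 adult and 0 prepubertal ones, more aged stringent cells than any other cluster. Germ-led clusters 7 and 8 held 45 and 38 aged, 5 and 3 adult, and 0 and 0 prepubertal ones. Leukocyte-led cluster 10 held 32 aged, 0 adult and 1 prepubertal, and germ-led cluster 3 held 0 aged, 13 adult and 0 prepubertal ones. The age comparisons below are over all cells of an animal, so that a change in the make-up of the cells and a change within a kind of cell cannot be told apart.

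**Figure D2:**
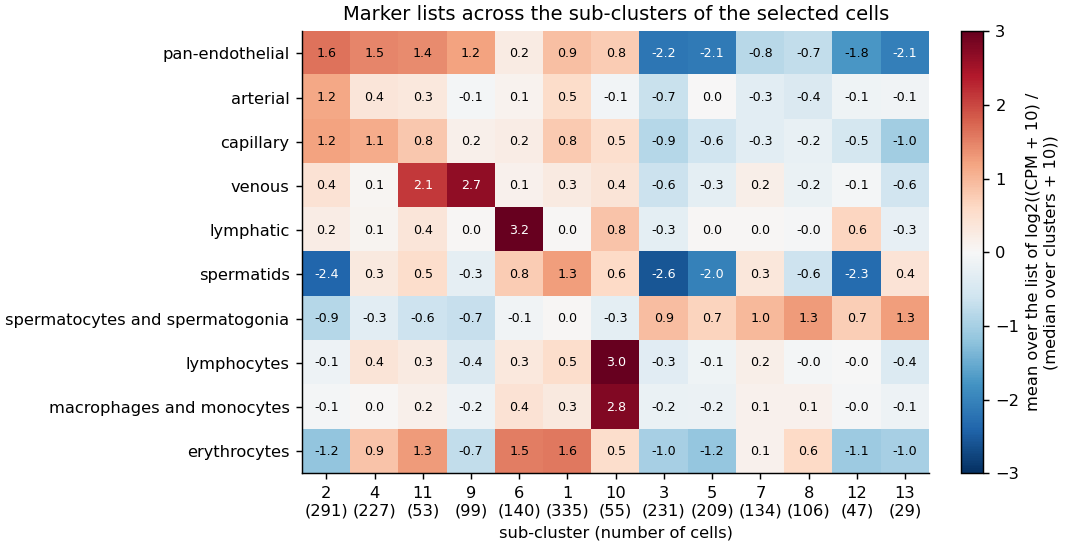
Heat map of 10 marker lists (rows) in the 13 sub-clusters (columns, with their number of cells). Colours give the mean over a list of the log2 ratio of the cluster's CPM to the median over clusters, each with 10 CPM added. The pan-endothelial list is highest in clusters 2, 4 and 11, the venous list in 9 and the lymphatic list in 6.

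The share of cells that met the rule differed widely between libraries, also between the 2 animals of a group. It was 0.564% (95% exact binomial interval 0.429 to 0.727%) and 0.150% (0.0874 to 0.240%) in the prepubertal non-breeding libraries of animals 1 and 2, and 1.11% (0.881 to 1.38%) and 0.788% (0.623 to 0.982%) in their breeding libraries. The adult non-breeding libraries held 2.89% (2.56 to 3.25%) and 2.52% (2.22 to 2.84%), and the adult breeding library of animal 1 held 0.533% (0.396 to 0.702%). The aged non-breeding libraries held 6.55% (6.13 to 6.99%) and 1.22% (1.04 to 1.42%), and the aged breeding libraries 0.823% (0.630 to 1.06%) and 0.760% (0.605 to 0.943%). In the stringent set the shares were 0.354 and 0.0706% in the prepubertal non-breeding, 0.777 and 0.616% in the prepubertal breeding, 0.574 and 0.437% in the adult non-breeding and 0.362% in the adult breeding libraries. The aged non-breeding libraries held 4.25 and 0.579% and the aged breeding libraries 0.459 and 0.491% of stringent cells. There both adult non-breeding libraries lay below both prepubertal breeding libraries. The aged non-breeding library of animal 1 stood above every other library in both sets, and these intervals cover counting error only.

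By animal, with both seasons summed, the share was 0.786 and 0.447% in the prepubertal, 1.70 and 2.49% in the adult and 4.46 and 1.01% in the aged animals. In adult animal 2 all 259 cells came from the non-breeding library, so here and in the gene comparisons this animal stands for that season alone. The mean log2 share differed by 1.79 between adult and prepubertal animals and by 1.84 between aged and prepubertal animals (exact permutation test, two-sided, p = 0.333 for each, the smallest p that 2 against 2 animals allow), and by 0.05 between aged and adult animals (exact p = 1). The aged minus adult difference was 1.46 in the stringent set (exact permutation p = 0.333) and 1.25 in the unconditioned set (exact permutation p = 0.667). Stringent cells made up 0.526 and 0.325%, 0.467 and 0.432%, and 2.86 and 0.539% in the same order, and their adult minus prepubertal difference was 0.12 (exact p = 1). In the unconditioned set the adult minus prepubertal difference was -1.20 and the aged minus prepubertal difference 0.05 (exact permutation p = 0.333 and 1). With shares, fewer endothelial cells and more cells of other kinds cannot be told apart.

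Between seasons, the log2 ratio of the share in the breeding over the non-breeding testis was 0.97 and 2.36 in the prepubertal animals, -2.43 and -2.57 in the adults and -2.98 and -0.68 in the aged animals. Both prepubertal animals had a higher share in the breeding season, and adult animal 1 and both aged animals a lower one. In the unconditioned set the ratio of prepubertal animal 1 turned to -0.08 (1.98% against 2.09%), while that of animal 2 was 2.38. For adult animal 2 no direction is established: its breeding library held 0 endothelial cells of 117, so that -2.57 is set by the 0.5 cells added, and the exact upper limit of 3.10% lies above its non-breeding share of 2.52%. The mean over the 6 animals was -0.89 (SD 2.18, higher in 2 of 6 animals with adult animal 2 counted as lower, exact permutation test by sign flips within animals, p = 0.375, smallest possible p 0.03125). Among stringent cells the mean was 0.01 (exact p = 1), with ratios of -0.66 and -0.06 in the adults.

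**Figure D3:**
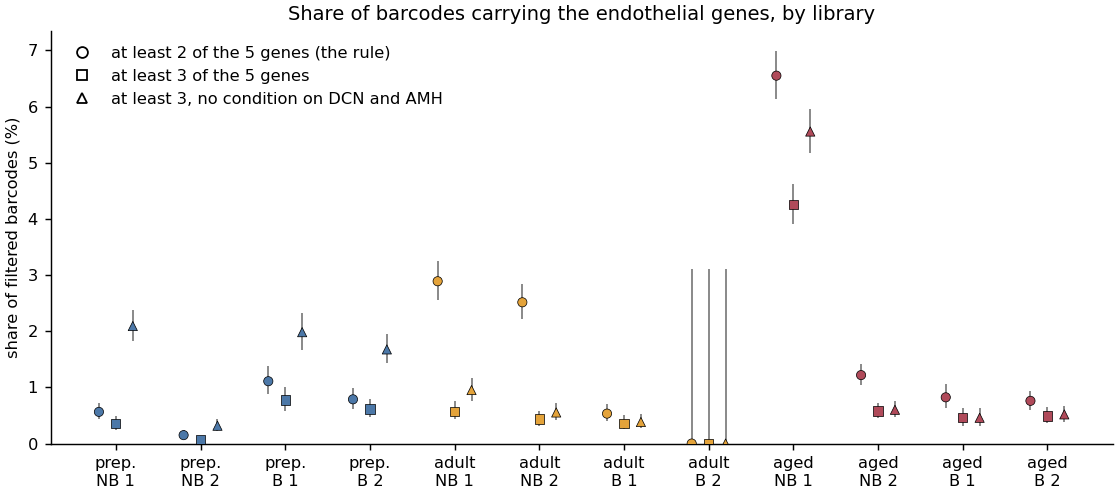
Share of filtered barcodes (y axis, %) that meet each definition of the cells, in each library. Circles follow the rule, squares the stringent set and triangles the unconditioned set, and bars are 95% exact binomial intervals. The aged non-breeding library of animal 1 stands apart at 6.55% by the rule, and the prepubertal libraries lie between 0.318 and 2.09% in the unconditioned set.

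The comparison of aged with prepubertal animals asked how endothelial RNA differed between the ends of the age range. In the stringent set 1266 genes were higher (19.3% of 6544 tested) and 200 lower (3.06%) in aged animals, by edgeR's quasi-likelihood test with Benjamini-Hochberg adjustment at 0.05 over all tested genes. Log2 fold changes are given ± SE, where SE is the absolute fold change divided by the square root of edgeR's F statistic. In the cells by the rule 1924 were higher (15.9% of 12120) and 263 lower (2.17%). By the rule 0 passed without prepubertal animal 2 (2920 with an unadjusted p under 0.05 by edgeR), 370 without prepubertal animal 1 and 755 without aged animal 1, and in the stringent set 849, 1073 and 1048. Most of the higher genes stood no higher in endothelial cells than in the other cells of the same aged libraries, 1226 of 1266 and 1840 of 1924. All 15 tested genes of the spermatid list were among the higher genes in both sets. The part of germ-cell RNA in the other changes was not tested. Apart from GLUL, the genes described next stood at least as high in endothelial cells as in the other cells, in the age where they were higher. In the stringent set 1263 of the 1266 higher and all 200 lower genes did not overlap between aged and prepubertal animals. A lack of overlap between these 2 ages in the genes below therefore adds nothing to their calls.

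Among the genes that rose was ACKR1 (chr1:91758653-91761697, minus strand, Mmul_10), which binds chemokines on venular endothelium. ACKR1 stood at 4.39 and 0 CPM in the prepubertal animals, 21.9 and 74.4 CPM in the adult animals and 127 and 168 CPM in the aged animals in the stringent set. The aged animals lay above all others and the adults between. The aged breeding library of animal 1 held no ACKR1 UMI. By sub-cluster ACKR1 was at 1089.8 CPM in cluster 11 and 445 CPM in cluster 9, both mostly of aged cells, and at 5.71 CPM in cluster 2 and 22.9 CPM in cluster 4. ACKR1 changed by 6.05 ± 0.86 on the log2 scale in the stringent set (adjusted p 0.000235) and by 6.33 ± 0.68 by the rule (0.0025). C6, a complement component, stood at 39.5 and 9.04 CPM in the prepubertal animals, 109.7 and 61.99 CPM in the adult animals and 137 and 569.6 CPM in the aged animals. C6 changed by 3.98 ± 0.74 on the log2 scale in the stringent set (adjusted p 0.00137) and by 3.67 ± 0.69 by the rule (0.00919). Only the second aged animal stood far above the adults for C6.

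PLAAT4 (chr14:11013991-11022465, minus strand), an interferon- and retinoid-inducible phospholipase, stood at 4.39 and 13.6 CPM in the prepubertal animals, 0 and 6.20 CPM in the adult animals and 94.5 and 56.02 CPM in the aged animals. Both aged animals lay above both other ages, which overlapped each other. PLAAT4 changed by 3.36 ± 0.72 on the log2 scale in the stringent set (adjusted p 0.00346) and by 3.82 ± 0.84 by the rule (0.0169). UBD, a ubiquitin-like modifier induced by inflammatory cytokines, had 0 UMIs in both prepubertal animals and stood at 115 and 32.7 CPM in the aged animals, at least 15.4-fold higher in the stringent set and at least 16.9-fold higher by the rule, against a floor of 3 UMIs over the prepubertal group. With aged animal 2 alone these bounds were 4.89 and 3.96. UBD passed the test by the rule (adjusted p 0.0197), and in the stringent set it was too low to be tested. FABP4 had 0 UMIs in all prepubertal and all adult animals and 35.1 and 46.7 CPM in the aged animals (by the rule, adjusted p 0.00908, at least 10.5-fold higher than in prepubertal animals, and at least 5.51-fold in the stringent set).

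PKHD1L1, a large receptor-like surface protein found in lymphatic endothelium and blood cells, stood at 0 and 4.52 CPM in the prepubertal animals, 21.9 and 43.4 CPM in the adult animals and 89.04 and 65.4 CPM in the aged animals. PKHD1L1 changed by 5.21 ± 0.85 on the log2 scale in the stringent set (adjusted p 0.000564) and by 3.87 ± 0.64 by the rule (0.00591). Levels of the 3 ages did not overlap, with the adults between. By sub-cluster PKHD1L1 was at 895 CPM in the lymphatic-like cluster 6 and 301 CPM in cluster 11, against 1.43 CPM in cluster 2 and 4.17 CPM in cluster 4. GLUL (glutamine synthetase), high in arterial endothelium, stood at 83.4 and 90.4 CPM in the prepubertal animals, 201 and 198 CPM in the adult animals and 562 and 415 CPM in the aged animals. GLUL changed by 2.74 ± 0.40 on the log2 scale in the stringent set (adjusted p 0.000303) and by 3.15 ± 0.36 by the rule (0.00258). In the stringent set its mean level in the aged animals was below that in their other cells. RAMP3, which turns the calcitonin receptor-like receptor CALCRL into an adrenomedullin receptor, stood at 198 and 22.6 CPM in the prepubertal animals, 278 and 99.2 CPM in the adult animals and 285 and 481 CPM in the aged animals. The aged animals lay above the prepubertal and adult animals, the first of them close to the first adult animal. RAMP3 changed by 1.99 ± 0.68 on the log2 scale in the stringent set (adjusted p 0.0498) and by 2.35 ± 0.69 by the rule (0.0482).

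Among the genes that fell was IGFBP3 (chr3:69448222-69457073, plus strand), which binds insulin-like growth factors. IGFBP3 stood at 141 and 189.9 CPM in the prepubertal animals, 84.1 and 6.20 CPM in the adult animals and 11.7 and 14.01 CPM in the aged animals. IGFBP3 changed by -3.47 ± 0.65 on the log2 scale in the stringent set (adjusted p 0.00139) and by -2.55 ± 0.36 by the rule (0.00395). VEGFC, the growth factor of lymphatic vessels, stood at 198 and 136 CPM in the prepubertal animals, 65.8 and 6.20 CPM in the adult animals and 18.7 and 23.3 CPM in the aged animals. VEGFC changed by -2.80 ± 0.58 on the log2 scale in the stringent set (adjusted p 0.00272) and by -2.41 ± 0.58 by the rule (0.0242). Neither gene overlapped between prepubertal and older animals. With non-breeding libraries alone VEGFC turned direction, to 2.29 by the rule and 0.06 in the unconditioned set, and passed in neither. VEGFC did not pass in the unconditioned set with all libraries (adjusted p 0.183) and its libraries were uneven, with 9.15 and 119 CPM in the prepubertal non-breeding and 372 and 138 CPM in the prepubertal breeding libraries.

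HES1, a transcriptional repressor switched on by Notch, stood at 198 and 461 CPM in the prepubertal animals, 80.5 and 61.99 CPM in the adult animals and 31.2 and 65.4 CPM in the aged animals. HES1 changed by -2.71 ± 0.50 on the log2 scale in the stringent set (adjusted p 0.00128) and by -2.37 ± 0.41 by the rule (0.00695). EFNB2 (ephrin B2), a membrane ligand of arterial endothelium, stood at 149 and 136 CPM in the prepubertal animals, 47.5 and 30.99 CPM in the adult animals and 32.02 and 23.3 CPM in the aged animals. EFNB2 changed by -2.01 ± 0.41 on the log2 scale in the stringent set (adjusted p 0.0027) and by -1.58 ± 0.37 by the rule (0.0205). SOX17, an arterial transcription factor, stood at 224 and 189.9 CPM in the prepubertal animals, 117 and 24.8 CPM in the adult animals and 33.6 and 88.7 CPM in the aged animals. SOX17 changed by -1.75 ± 0.55 on the log2 scale in the stringent set (adjusted p 0.0339) and by -1.65 ± 0.39 by the rule (0.0227). Every prepubertal value of these genes lay above every adult and aged value. The Notch ligand gene DLL4 was lower in the stringent set (log2 fold change -1.59 ± 0.43, adjusted p 0.0152) and did not pass by the rule (adjusted p 0.116).

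Of 19 tested receptors for angiogenic signals 4 were lower in the stringent set and 15 did not pass. KDR, the main receptor for vascular endothelial growth factor A, stood at 312 and 280.4 CPM in the prepubertal animals, 154 and 74.4 CPM in the adult animals and 109 and 79.4 CPM in the aged animals. KDR changed by -1.36 ± 0.40 on the log2 scale in the stringent set (adjusted p 0.0264) and by -1.0 ± 0.50 by the rule (0.21). CXCR4 (chr12:21291083-21294316, minus strand), the CXCL12 receptor of tip cells, stood at 83.4 and 72.3 CPM in the prepubertal animals, 14.6 and 18.6 CPM in the adult animals and 14.8 and 14.01 CPM in the aged animals. CXCR4 changed by -2.14 ± 0.55 on the log2 scale in the stringent set (adjusted p 0.0112) and by -1.57 ± 0.50 by the rule (0.0633). In both genes the prepubertal animals lay above the adult and aged animals, which overlapped. NRP1 (adjusted p 0.0137) and EDNRB (adjusted p 0.0299), a co-receptor for VEGF and an endothelin receptor, were also lower in the stringent set. None of these 4 passed by the rule, and in the unconditioned set CXCR4 (adjusted p 0.0106) and EDNRB (0.0367) passed while KDR (0.104) and NRP1 (0.0581) did not.

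ERG, a transcription factor that maintains endothelial identity, stood at 540.2 and 1094 CPM in the prepubertal animals, 322 and 211 CPM in the adult animals and 223 and 299 CPM in the aged animals. ERG changed by -1.43 ± 0.44 on the log2 scale in the stringent set (adjusted p 0.0306) and by -1.39 ± 0.37 by the rule (0.0346). In the unconditioned set neither ERG (adjusted p 0.184) nor SOX17 (0.125) passed. Of the class II MHC genes, MAMU-DPA stood at 496 and 239.7 CPM in the prepubertal animals, 29.3 and 0 CPM in the adult animals and 7.03 and 60.7 CPM in the aged animals. MAMU-DPA changed by -3.86 ± 0.80 on the log2 scale in the stringent set (adjusted p 0.00282) and by -3.30 ± 0.89 by the rule (0.0352). Its reads can be split among near-identical MHC genes, so its level is uncertain.

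Of 15 tested basement membrane genes 5 were lower in the stringent set and 10 did not pass. COL4A1 (chr17:91595188-91748807, minus strand) and COL4A2 (chr17:91748923-91949867, plus strand) lie head to head and encode the paired collagen chains of the vascular basement membrane. COL4A1 stood at 264 and 258 CPM in the prepubertal animals, 87.8 and 30.99 CPM in the adult animals and 90.6 and 60.7 CPM in the aged animals and COL4A2 at 540.2 and 484 CPM in the prepubertal animals, 263 and 105 CPM in the adult animals and 170.3 and 131 CPM in the aged animals. COL4A1 changed by -1.47 ± 0.42 on the log2 scale in the stringent set (adjusted p 0.022) and by -1.23 ± 0.39 by the rule (0.0662). COL4A2 changed by -1.50 ± 0.43 on the log2 scale in the stringent set (adjusted p 0.0222) and by -1.36 ± 0.33 by the rule (0.0246). LOXL2, an enzyme that cross-links collagen, stood at 87.8 and 289 CPM in the prepubertal animals, 84.1 and 61.99 CPM in the adult animals and 19.5 and 42.02 CPM in the aged animals. LOXL2 changed by -2.61 ± 0.57 on the log2 scale in the stringent set (adjusted p 0.00404) and by -2.42 ± 0.53 by the rule (0.0165). In the unconditioned set the adjusted p was 0.0805 for COL4A1 and 0.0588 for COL4A2.

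By function, counts of the stringent set are to be read against 3.06% of all tested genes lower and 19.3% higher. The list medians are also to be read against the pan-endothelial median of -0.65, since endothelial RNA as a whole was lower in aged cells. Pan-endothelial genes made up a median of 0.575% of stringent UMIs in the prepubertal and 0.382% in the aged libraries. The part of this in the list medians was not tested. Of 12 tested endothelial transcription factors 6 were lower (ERG, SOX17, MEF2C, ETS2, MECOM and ETS1) and 0 higher. Their median log2 fold change was -0.89 against 0.03 over all tested genes. Of 15 basement membrane genes 5 were lower (SPARC, COL4A1, COL4A2, NID1 and HSPG2, median -0.72), of 19 angiogenic receptors 4 (median -0.91), of 9 angiocrine ligands 3 (VEGFC, DLL4 and KITLG, median -0.49), and of 5 arterial genes 3, with GLUL higher (median -1.59). Of 6 capillary genes SPARC and KDR were lower (median -1.06), and ACKR1 was the gene higher among 5 venous genes (median 0.32). Of 16 pan-endothelial genes (median -0.65), 4 lymphatic genes (median -0.05), 11 barrier genes (median -0.31) and 9 antigen presentation genes (median 0.24) 0 passed, and of 15 interferon-induced genes OAS1 was higher (median -0.18). Of 11 genes of vascular tone RAMP3 was higher and EDNRB lower (median -0.03), and of 9 leukocyte adhesion genes ACKR1 was higher (median -0.12). By the rule 2.17% of all tested genes were lower and 15.9% higher. Lower there were 2 of 12 transcription factors (SOX17 and ERG), 1 of 17 basement membrane genes (COL4A2), 0 of 21 angiogenic receptors, 2 of 15 angiocrine ligands (ESM1 and VEGFC) and 3 of 8 arterial genes (EFNB2, SOX17 and HEY1). Higher were GLUL, 2 of 8 venous genes (ACKR1 and TLL1) and 1 of 9 capillary genes (FABP4), and 0 of 18 pan-endothelial genes passed.

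**Figure D4:**
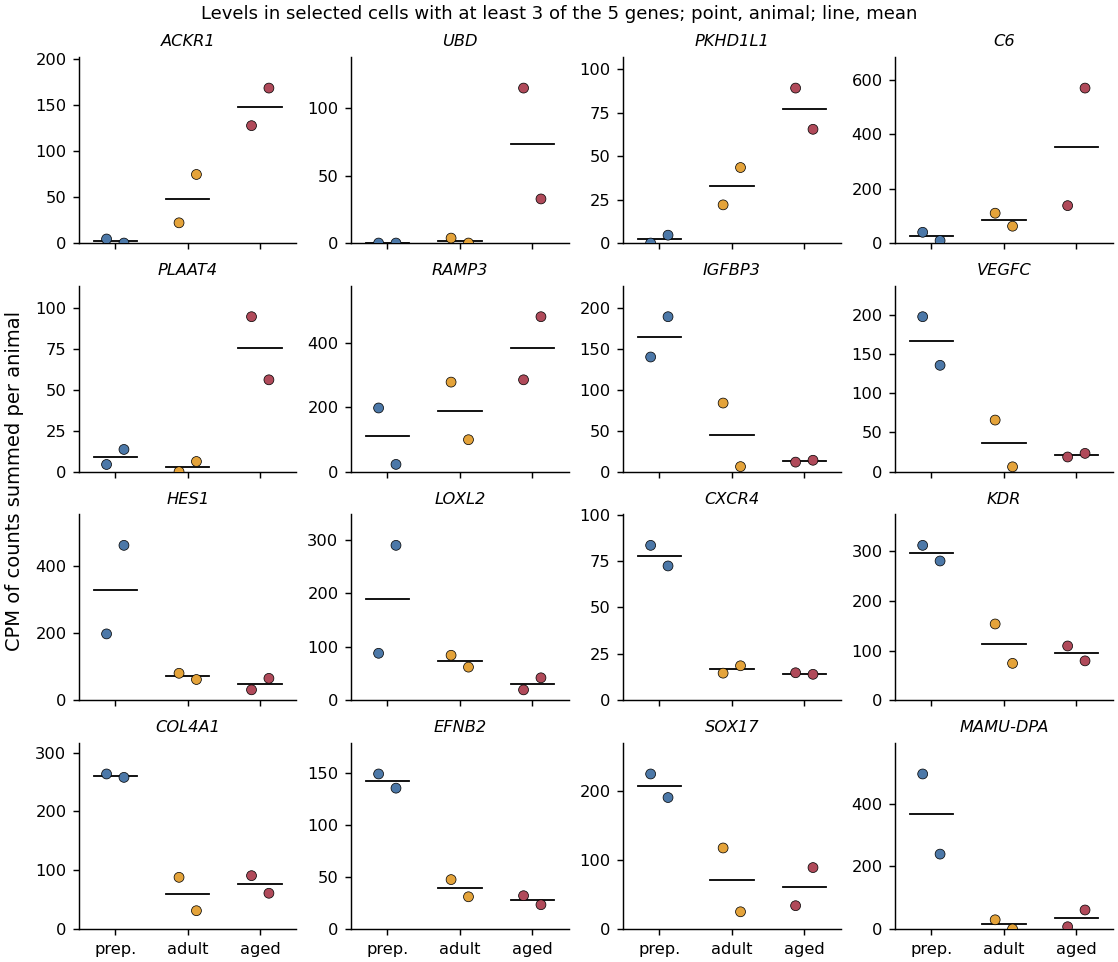
Level (y axis, CPM) of 16 named genes in the stringent set, 1 point per animal and a line at the mean of the 2 animals of each age. ACKR1, UBD, PKHD1L1, C6, PLAAT4 and RAMP3 are highest in aged animals, and IGFBP3, VEGFC, HES1, LOXL2, CXCR4, KDR, COL4A1, EFNB2, SOX17 and MAMU-DPA are highest in prepubertal animals.

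Of the 200 genes lower in the stringent set, 94 (47.0%) were also called lower by the rule, and 128 (64.0%) in the unconditioned set, where 1975 genes were higher (17.7% of 11168 tested) and 770 lower (6.89%). Of the 1266 higher genes 1140 (90.1%) were shared with the cells by the rule. Most prepubertal stringent cells came from the breeding season, 117 of 162, whereas 623 of 710 aged stringent cells came from the non-breeding season. With the non-breeding libraries alone 0 genes passed in the stringent set by edgeR's quasi-likelihood test (1116 with an unadjusted p under 0.05), where the prepubertal arm was a single library because that of animal 2 held 8 stringent cells. Under that setting 1005 passed in the unconditioned set (817 higher, 188 lower).

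**Figure D5:**
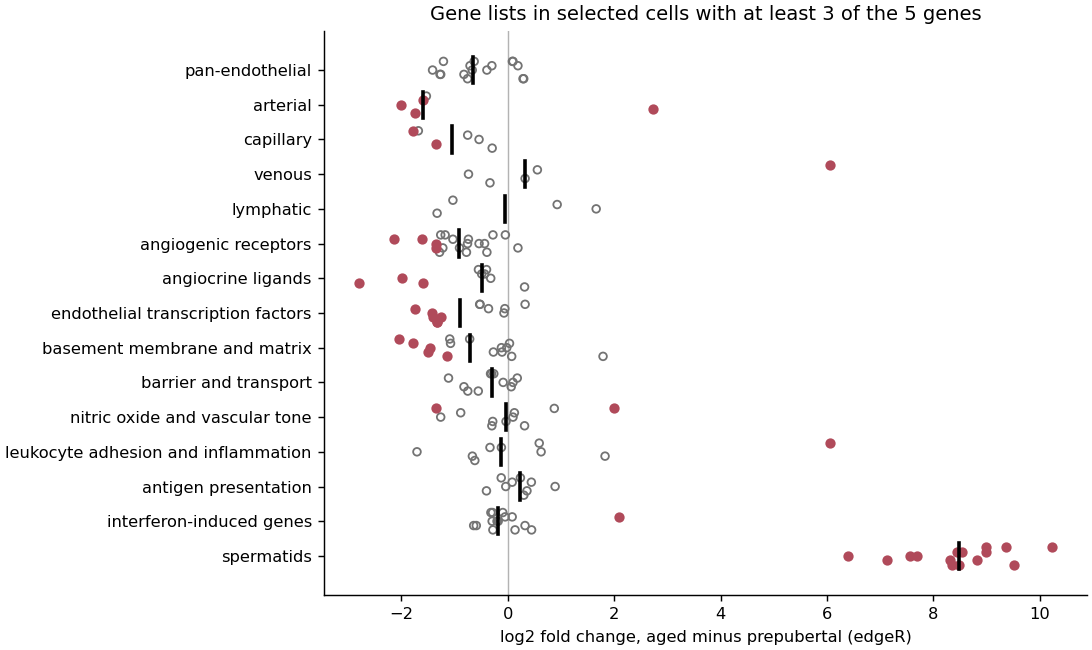
Log2 fold change, aged minus prepubertal, in the stringent set (x axis) of each tested gene of the endothelial lists and the spermatid list (rows). Filled red points passed the test, open points did not, and black bars mark the list's median. Called genes lie below 0 in the arterial, capillary, receptor, angiocrine, transcription factor and basement membrane lists, except GLUL, and above 0 for ACKR1, RAMP3, OAS1 and the 15 spermatid genes.

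Between adult and prepubertal animals, 717 genes were higher in the stringent set (11.0% of 6544) and 137 lower (2.09%) in adults, and by the rule 621 were higher (5.12% of 12120) and 1049 lower (8.66%). By the rule 0 genes passed without prepubertal animal 1 and 0 without prepubertal animal 2 (3222 and 2428 with an unadjusted p under 0.05 by edgeR's quasi-likelihood test), and 822 without adult animal 2. In the stringent set 220 and 117 passed without prepubertal animals 1 and 2, 359 without adult animal 2 and 1637 without adult animal 1. With non-breeding libraries alone 0 passed by the rule, in the stringent set and in the unconditioned set (1594, 651 and 998 with an unadjusted p under 0.05 by edgeR). The counts of lists and the calls of genes below are those with all animals. Of the higher genes 582 of 717 and 483 of 621 stood no higher than in the other cells. Since this comparison and the previous one share the prepubertal animals, they are not independent of each other.

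CXCR4 (adjusted p 0.0287 in the stringent set and 0.0197 by the rule), KDR (0.0438 and 0.0152), EFNB2 (0.0174 and 0.0138), VEGFC (0.032 and 0.0164), COL4A1 (0.0121 and 0.015) and COL4A2 (0.039 and 0.015) were lower in adults in both sets. Log2 fold changes ± SE in the stringent set were -2.31 ± 0.63, -1.40 ± 0.42, -1.87 ± 0.45, -2.09 ± 0.58, -2.11 ± 0.46 and -1.51 ± 0.44 in that order. For each of the 6 genes both adult animals lay below both prepubertal animals in the levels given above. That held for all 137 genes called lower in the stringent set and all 1049 by the rule, so it adds nothing to the calls. In the unconditioned set CXCR4, EFNB2 and COL4A1 passed as well, and KDR (adjusted p 0.127), VEGFC (0.268) and COL4A2 (0.0919) did not. With non-breeding libraries alone VEGFC turned to 1.36 by the rule and did not pass.

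Other genes were compared for adult minus prepubertal animals. APOD (apolipoprotein D), a lipid carrier, stood at 545 and 927 CPM in the prepubertal animals, 168 and 49.6 CPM in the adult animals and 230.4 and 177 CPM in the aged animals. APOD changed by -2.76 ± 0.52 on the log2 scale in the stringent set (adjusted p 0.00648) and by -4.32 ± 0.59 by the rule (0.0138). RNASE1 stood at 1589.9 and 1533 CPM in the prepubertal animals, 724 and 143 CPM in the adult animals and 255 and 359 CPM in the aged animals. RNASE1 changed by -1.90 ± 0.58 on the log2 scale in the stringent set (adjusted p 0.0455) and by -3.66 ± 0.69 by the rule (0.0168). CDH5, the cadherin of endothelial junctions, stood at 65.9 and 136 CPM in the prepubertal animals, 36.6 and 6.20 CPM in the adult animals and 27.3 and 42.02 CPM in the aged animals. CDH5 changed by -2.10 ± 0.63 on the log2 scale in the stringent set (adjusted p 0.0436) and by -3.92 ± 0.72 by the rule (0.0163). The second adult animal, whose cells were all from the non-breeding season, was the lowest for all 3 genes. Of these, APOD passed in the unconditioned set (adjusted p 0.0123) and RNASE1 (0.111) and CDH5 (0.0825) did not. MAMU-DPA was lower as well, with 29.3 and 0 CPM in the adults (stringent adjusted p 0.00768). ACKR1 was higher in adults in the stringent set (log2 fold change 4.04 ± 1.08, adjusted p 0.0276) and did not pass by the rule (0.13).

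COL4A3 (chr12:114612842-114761672, plus strand) and COL4A4 (chr12:114457002-114612826, minus strand) form a second head-to-head pair of basement membrane collagens. COL4A3 stood at 57.1 and 76.9 CPM in the prepubertal animals, 0 and 12.4 CPM in the adult animals and 64.8 and 23.3 CPM in the aged animals and COL4A4 at 65.9 and 122 CPM in the prepubertal animals, 10.97 and 37.2 CPM in the adult animals and 79.7 and 28.01 CPM in the aged animals in the stringent set. The adult values of COL4A3 lay below all prepubertal and aged values. In adults against prepubertal animals, COL4A3 changed by -3.80 ± 0.97 on the log2 scale in the stringent set (adjusted p 0.0227) and by -3.93 ± 0.80 by the rule (0.0207). It did not pass in the unconditioned set (adjusted p 0.0721).

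The rule and the stringent set gave different counts for whole lists here. By the rule 16 of 18 pan-endothelial genes were lower in adults (median log2 fold change -2.71 against 0.08 over all tested genes, of which 8.66% were lower), with 19 of 21 angiogenic receptors, 11 of 12 transcription factors, 13 of 17 basement membrane genes, 9 of 9 antigen presentation genes and 13 of 19 interferon-induced genes. Among stringent cells 1 of 16 pan-endothelial genes was lower (CDH5, list median -1.19). Against 2.09% of all tested genes, lower there too were 4 of 19 angiogenic receptors (CXCR4, KDR, NRP1 and S1PR1), 4 of 12 transcription factors (ETS1, ERG, MEF2C and ETS2), 4 of 15 basement membrane genes (COL4A1, HSPG2, COL15A1 and COL4A2), 2 of 9 antigen presentation genes and 1 of 15 interferon-induced genes. The share of 2-gene cells moved with the counts by the rule, 444 of 576 cells in adults and 72 of 234 in prepubertal animals, and its part in them was not tested. Of the 137 genes lower in the stringent set 129 were also lower by the rule (94.2%) and 56 in the unconditioned set (40.9%), where 943 genes were higher (8.44% of 11168) and 183 lower (1.64%).

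Between aged and adult animals few genes were called in the stringent set with all animals. Leaving out an animal moved that number widely, as given with the processing. In the stringent set 9 genes were higher (0.138% of 6544) and 21 lower (0.321%) in aged animals, against 1893 higher (15.6% of 12120) and 462 lower (3.81%) by the rule and 290 higher (2.60% of 11168) and 213 lower (1.91%) in the unconditioned set. All 9 higher genes of the stringent set were among those of both other sets. The genes lower in the stringent set that met the naming rule were led by PAGE1, GAGE10, RNF157, GCNA, IL1RAPL1, PRAME and TKTL1, several of which are germ-line genes, and germ-led clusters held 28 of the 98 stringent cells of the adult non-breeding libraries.

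PLAAT4 was the gene higher in aged animals that met the naming rule in the stringent set, where the adult animals stood at 0 and 6.20 CPM and the aged at 94.5 and 56.0 CPM. PLAAT4 changed by 5.21 ± 0.92 on the log2 scale in the stringent set (adjusted p 0.0346) and by 7.33 ± 0.95 by the rule (0.0137). FABP4 was at least 5.33-fold higher in aged animals in the stringent set, where it was too low to be tested, and at least 37.6-fold higher by the rule (adjusted p 0.0154), where the floor rests on 2709385 adult UMIs in place of 434784. By the rule UBD (5.88 ± 1.0, adjusted p 0.0195), the interferon-induced antiviral gene MX2 (4.61 ± 0.52, 0.0137) and FGL2 (4.79 ± 0.56, 0.0137), a fibrinogen-like protein of endothelium and macrophages, were higher on the log2 scale. In the stringent set all 3 genes were too low to be tested in this comparison. There UBD had 1 and 0 UMIs in the adult animals, MX2 3 and 1, and FGL2 1 and 1, against 147 and 7, 50 and 24, and 39 and 11 UMIs in the aged animals, which held more cells. UBD (adjusted p 0.0164) and MX2 (0.032) passed in the unconditioned set and FGL2 (0.0752) did not.

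ACKR1 was higher by the rule (3.92 ± 0.40, adjusted p 0.0137) and did not pass in the stringent set (2.01 ± 0.53, 0.0765). The same held for MGP, an inhibitor of calcification (4.92 ± 0.96 with 0.0213, and 3.37 ± 1.01 with 0.0957), COL4A3 (4.02 ± 0.75 with 0.0203, and 3.66 ± 0.94 with 0.0728), PKHD1L1 (4.23 ± 0.53 with 0.0137, and 1.69 ± 0.54 with 0.107) and MAMU-DRB1 (3.68 ± 0.41 with 0.0137, and 1.86 ± 0.45 with 0.0611). Direction was the same in both sets for these 5 genes, and the stringent estimates were smaller. In the unconditioned set MAMU-DRB1 passed (adjusted p 0.044) and the other 4 did not. By the rule 9 of 9 antigen presentation genes, 17 of 19 interferon-induced genes and 14 of 18 pan-endothelial genes were higher, against 15.6% of all tested genes. In the stringent set, where 0.138% of all tested genes were higher, 0 of 9, 0 of 15 and 0 of 16 passed, with medians of 1.31, 1.05 and 0.62 against 0.16 over all tested genes.

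Without aged animal 1 the rule gave 0 genes in this comparison (2171 with an unadjusted p under 0.05 by edgeR), and without its non-breeding library 155. With non-breeding libraries alone 0 passed by the rule, in the stringent set and in the unconditioned set (3577, 893 and 1334 with an unadjusted p under 0.05 by edgeR). Genes lower in aged animals by the rule included CST6, KISS1R and RHOXF2 (log2 fold changes of -4.46, -3.53 and -3.34), of which RHOXF2 is a homeobox gene of germ cells. By sub-cluster CST6 was at 87.3 CPM in germ-led cluster 12 and KISS1R at 38.4 CPM in germ-led cluster 3, against 2.85 and 0 CPM in cluster 2. Lymphocyte genes moved with this comparison: 5 of 5 tested lymphocyte genes by the rule were higher (NKG7, GNLY, GZMB, PTPRC and CD3D, median 4.94), as were the globin genes HBA and HBE1 in both sets. Their part in the results was not tested.

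Between seasons, genes were called in adults by the rule, where 139 genes were higher in the breeding season (1.55% of 8946 tested) and 0 lower, and in the stringent set 0 of 5688 passed by edgeR's quasi-likelihood test (606 with an unadjusted p under 0.05). With the animal as replicate block 149 passed in the stringent set (132 higher, 17 lower) and 586 by the rule (565 higher, 21 lower). That fit keeps only animals with both seasons, so its adult effect is the single pair of libraries of adult animal 1, with a spread estimated from the 2 aged animals, and it has no replicate of its own. Levels in the next 2 sentences are by the rule. CDH5 stood at 2.29 and 0.790 CPM in the adult non-breeding libraries and 60.9 CPM in the breeding library of animal 1 (log2 fold change 5.29 ± 0.82, adjusted p 0.0273). EDNRB stood at 6.86 and 7.90 CPM against 190.4 CPM (4.84 ± 0.68, 0.0273), and CD93, a lectin-like endothelial receptor, at 8.39 and 3.95 CPM against 129 CPM (4.53 ± 0.66, 0.0273). Among stringent cells their adjusted p was 0.386, 0.305 and 0.333. The make-up of the cells by the rule moved with these levels and its part in them was not tested: 2-gene cells were 428 of 526 non-breeding and 16 of 50 breeding cells, and germ-led clusters held 214 of 267 and 218 of 259 cells of the non-breeding libraries and 17 of 50 of the breeding library. The adult breeding group is a single library of 50 cells, assumed to vary like the others.

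The prepubertal test had a single non-breeding library, since that of animal 2 held 17 cells. In prepubertal and aged animals and over the mean of the ages 0 genes passed by edgeR's quasi-likelihood test (394, 289 and 1361 with an unadjusted p under 0.05), and by DESeq2 184 passed over the mean of the ages. With the block, which left prepubertal animal 1, adult animal 1 and both aged animals, 5 genes passed in aged animals and 66 over the mean by the rule. With 1 or 2 libraries per group these counts do not show that genes were alike between seasons. In adults with the block, and so in animal 1 alone, EDNRB passed by the rule (adjusted p 0.000146) and in the stringent set (0.0216, against 0.305 without the block). CD93 passed by the rule (0.00135) and not in the stringent set (0.131), and CDH5 passed in neither (0.0613 and 0.451).

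Endothelial changes were set against those of stromal cells from the same animals, by testing the difference of the age effects. Stromal cells were 7450 barcodes with at least 2 of DCN, LUM, PDGFRA, COL1A2 and COL6A3 and no EMCN, VWF or AMH UMI. For aged minus adult the effect was higher in the cells taken as endothelial for 1077 genes (7.42% of 14510) and lower for 148 (1.02%) by the rule. In the stringent set it was so for 27 (0.191% of 14120) and 11 (0.0779%). For adult minus prepubertal it was higher for 446 (3.07%) and lower for 652 (4.49%) by the rule, and for 170 (1.20%) and 146 (1.03%) in the stringent set. By the rule, 2-gene cells were 444 of 576 adult, 436 of 1146 aged and 72 of 234 prepubertal cells. Germ-led clusters held most cells of the adult non-breeding libraries, so the counts by the rule are not of endothelium alone. The part of this make-up in them was not tested.

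For the second type IV collagen pair the age effect differed between endothelium and stroma. COL4A3 in stromal cells stood at 7.02 and 5.11 CPM in the prepubertal animals and 65.8 and 31.02 CPM in the adult animals, higher in adults, while its endothelial level was lower in adults, with a difference of -6.89 ± 0.93 in the stringent set (adjusted p 5.29e-07) and -6.77 ± 1.07 by the rule (0.00278) on the log2 scale. COL4A4 stood at 11.1 and 2.56 CPM in the prepubertal animals and 88.5 and 31.5 CPM in the adult animals in stroma, with a difference of -5.31 ± 0.75 in the stringent set (adjusted p 9.45e-07) and -6.23 ± 0.95 by the rule (0.00214). NOS3 stood at 65.9 and 81.4 CPM in the prepubertal animals and 25.6 and 18.6 CPM in the adult animals in endothelium and at 1.17 and 0 CPM in the prepubertal animals and 8.53 and 18.9 CPM in the adult animals in stroma, with a difference of -5.90 ± 1.03 in the stringent set (adjusted p 0.0001) and -6.52 ± 0.84 by the rule (0.00085). PAQR5, a progestin receptor, stood at 74.7 and 63.3 CPM in the prepubertal animals and 113 and 37.2 CPM in the adult animals in endothelium, where the ages overlapped, and at 0.585 and 0.639 CPM in the prepubertal animals and 46.3 and 80.4 CPM in the adult animals in stroma, with a difference of -6.25 ± 0.82 in the stringent set (adjusted p 2.23e-07) and -7.04 ± 0.72 by the rule (0.00023). For each of these genes the difference between cell types came with a higher stromal level in adults. Spermatid genes made up a median of 0.0014% of stromal UMIs in the prepubertal and 1.60% in the adult libraries. The part of germ-cell RNA in the stromal levels was not tested.

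Between adult and aged animals, ADAMTS9, a matrix protease of vessels, stood at 40.2 and 49.6 CPM in the adult animals and 116 and 126 CPM in the aged animals in endothelium and at 16.2 and 11.04 CPM in the adult animals and 8.66 and 4.08 CPM in the aged animals in stroma, with a difference of 2.60 ± 0.56 in the stringent set (adjusted p 0.0218) and 3.44 ± 0.47 by the rule (0.00181). FGL2 stood at 3.66 and 6.20 CPM in the adult animals and 30.5 and 51.4 CPM in the aged animals in endothelium and at 101 and 69.4 CPM in the adult animals and 46.7 and 75.6 CPM in the aged animals in stroma, with a difference of 3.83 ± 0.82 in the stringent set (adjusted p 0.0216) and 5.12 ± 0.55 by the rule (0.000823). TLL1, a metalloprotease and a venous marker, stood at 10.97 and 0 CPM in the adult animals and 50.8 and 37.3 CPM in the aged animals in endothelium and at 10.2 and 2.63 CPM in the adult animals and 4.41 and 1.36 CPM in the aged animals in stroma, with a difference of 4.01 ± 0.95 in the stringent set (adjusted p 0.037) and 4.18 ± 0.59 by the rule (0.00205). The 3 genes were higher in the endothelium of both aged animals than of both adults, as the naming rule required. In the stringent set FGL2 was too low to be tested within endothelium, and its adult level there rests on the few UMIs given above. For CDH5 the difference passed by the rule (0.0336) and not in the stringent set (0.507).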

How the data were processed

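Testis cells of 6 rhesus monkeys were profiled on the 10x Genomics platform. Reads were aligned to Mmul_10 by the authors with Cell Ranger 9.0.0 (submitters' processing notes). The 12 deposited matrices hold raw UMI counts for 26530 features in filtered barcodes. The cell filters of the study's methods, its removal of clusters with high contamination scores (decontX) and its removal of doublets (DoubletFinder) came after these files. The labels list 48 samples, 8 in each of 6 groups, and name no matrix. The group and animal of each matrix were read from the library sheet of the study's supplement.

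Cells were filtered as in the study and members chosen by the stated rule, with no doublet caller. The rule, the 26 gene lists (379 genes, 353 in the files) and the tests were chosen with earlier results of these data known. Counts were summed per animal (ages) or library (seasons) over at least 20 cells, so that both libraries without 20 cells by the rule were left out of season tests, and were tested with edgeR 4.0.16 (quasi-likelihood, TMM, Benjamini-Hochberg at 0.05, R 4.3.3). DESeq2 1.42.0 was an alternative, with leaving out animals, other cell sets, no low-count filter and non-breeding libraries alone. The code was run on counts simulated with a fixed spread and 4-fold changes. Of these it recovered 48.2% by the rule and 47.3% in the stringent set for aged minus prepubertal, and 66.0 and 30.1% for aged minus adult. In the season tests it recovered 0% (prepubertal), 2.58% (adult) and 16.1% (aged) by the rule. In the stringent set these were 2.35, 0 and 11.8%, so most changes of that size would be missed between seasons. CPM are UMIs of a gene per 1000000 UMIs, summed over the cells of an animal or library. Shares were compared by exact permutation tests on the log2 scale, with 0.5 added to the cells and 1 to the total. Sub-clusters came from 2000 variable genes, 30 principal components and 20 neighbours (Leiden, resolution 1, leidenalg 0.10.2).

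Named genes passed the threshold, had at least 20 CPM in the higher group, no overlap between animals and a level at or above that of the other cells, up to 12 per direction, with list members past the threshold in addition. Only part of them is described. Same-numbered libraries of an age came from the same animal by that sheet. The correlations of their deviations were -0.16 (prepubertal) and -0.10 (aged) by the rule and 0.09 and 0.14 in the stringent set. Endothelial cells had median depths of 1325.5 to 5025 UMIs per library, which limits low genes. Gene positions are from RefSeq on Mmul_10, matched by symbol.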

Additional observations from a re-analysis of the deposited data

Results flagged for a closer look

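The season ratio of the endothelial share by the rule had opposite directions in different ages, with both prepubertal animals on one side and adult animal 1 and both aged animals on the other. The value of adult animal 2 (-2.57) rests on 0 of 117 barcodes with 0.5 cells added, and its direction is not established (exact upper limit 3.10% against 2.52% in the non-breeding library). Without the condition on DCN and AMH, in cells with 3 or more rule genes, the ratio was -0.08 in prepubertal animal 1 and 2.38 in animal 2, so that the prepubertal animals no longer shared a direction. The mean log2 ratio of breeding over non-breeding was 1.667 in the prepubertal, -2.5 in the adult animals, that value included, and -1.829 in the aged animals. This difference between ages was not tested.

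The age effect differed between endothelial and stromal cells by the test of the difference itself for 1225 genes for aged minus adult and for 1098 genes for adult minus prepubertal, both by the rule. Among stringent cells 38 and 316 genes passed.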

How the results depend on the processing

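Of 164 counts of genes and share differences under alternatives, 91 kept to the limits (a count of genes within 1.5 times, a share difference with the same sign and the same side of its exact test's threshold), 64 moved and 9 turned direction. Of 1072 values of named genes, 653 kept direction and side of the threshold, 364 no longer passed, 52 newly passed and 3 turned. The cause of these changes was not tested, except that fewer samples enter where libraries were left out.

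For aged minus adult (2355 genes by the rule), 3765 passed without a low-count filter, 1449 by DESeq2, 30 in the stringent set, 155 without the aged non-breeding library of animal 1 (14 in the stringent set), 503 in the unconditioned set, and 0 with non-breeding libraries alone in all 3 sets (3577 with an unadjusted p under 0.05 by the rule). For adult minus prepubertal (1670), 3187 passed without the filter, 854 in the stringent set (919 also without that library), and 0 with non-breeding libraries alone in all 3 sets. For aged minus prepubertal (2187), 1428 passed without that library (1070 in the stringent set), and with non-breeding libraries alone 0 by the rule and in the stringent set and 1005 in the unconditioned set. For the season in adults (139), 306 passed by DESeq2, 586 with the replicate block, and 0 in the stringent set (149 with the block) and the unconditioned set. In aged animals (0), 5 passed with the block (3 in the stringent set). Over the mean of ages (0), 184 passed by DESeq2, 66 with the block, 172 with at least 10 cells, 2 in the stringent set with the block and 2 in the unconditioned set. For the difference from stroma, aged minus adult (1225) gave 385 by DESeq2 and 38 in the stringent set, and adult minus prepubertal (1098) gave 2225 without the filter, 696 by DESeq2 and 316 in the stringent set.

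Leaving out 1 animal gave 0 to 2585 genes for aged minus adult (0 without aged animal 1), 0 to 2320 for adult minus prepubertal (0 without either prepubertal animal), 0 to 2216 for aged minus prepubertal (0 without prepubertal animal 2), and 88 to 1177 and 84 to 1334 for the differences from stroma. Leaving out 1 library gave 213 to 341 for the season in adults, 0 in prepubertal animals, 0 to 3 in aged animals and 0 to 146 over the mean. Among stringent cells, leaving out 1 animal gave 18 to 623 for aged minus adult (42 without aged animal 1, 226 without aged animal 2), 117 to 1637 for adult minus prepubertal (220 without prepubertal animal 1, 359 without adult animal 2) and 849 to 1528 for aged minus prepubertal (1073 without prepubertal animal 1, 1048 without aged animal 1).

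The season ratio of the share (-0.887) was 0.0065 in the stringent set (0.0199 also without adult animal 2), -0.529 in the unconditioned set, -0.485 over cells that were not rich in spermatid RNA, -0.157 with cells thinned to 1000 UMIs and 1.15 without cells that carried markers of another type, and -1.54 to -0.468 without 1 animal. The same mean without the replicate block had an exact p of 0.307. Those unmixed cells numbered 91 and gave -1.45 for aged minus adult, -4.01 for adult minus prepubertal and -5.46 for aged minus prepubertal. Gene tests on them could not be fitted for want of 20 cells in adult and aged animals. Aged minus adult ran from -1.02 (without aged animal 1) to 1.11, with -0.228 without adult animal 1. Adult minus prepubertal was -1.20 in the unconditioned set and ran from 1.38 to 2.20, and aged minus prepubertal from 0.768 to 2.90. With cells thinned to 1000 UMIs adult minus prepubertal was 0.159 and aged minus prepubertal 0.895. With non-breeding libraries alone VEGFC turned, to 2.29 by the rule and 0.0566 in the unconditioned set for aged minus prepubertal, and to 1.36 for adult minus prepubertal.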

Other observations

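Genes outside the endothelial lists are given as values for aged minus prepubertal animals in the stringent set. Of 12 tested immediate early and stress genes the chaperone gene DNAJB1 was higher and NR4A1 lower (median log2 fold change -0.55 against 0.03 over all tested genes, of which 19.3% were higher and 3.06% lower), and of 6 senescence genes IGFBP3 was lower (median -0.22). Of 8 cell cycle genes 6 were higher (median 3.64, or 2.87 with genes at 0 in a group set to their bound), next to 6 of 9 spermatocyte and spermatogonium genes (5.0, or 3.06) and 15 of 15 spermatid genes (8.49, or 6.39). Of 6 Sertoli genes HSD17B3 was higher and INHA lower, of 3 Leydig and stromal genes DLK1 was lower, and of 3 peritubular genes RGS5, a pericyte gene, was lower. LYZ was the one macrophage gene tested and was higher, the one lymphocyte gene tested did not pass, and both tested globin genes, HBA and HBE1, were higher.

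PLVAP, at a median of 0 CPM in the stringent set, was found at 207 CPM in cluster 11, all of whose 53 cells came from a single library. This cluster was seen after clustering and has no replicate.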
